A study of Mus musculus with 28 samples.

Results

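The subcortical maternal complex is represented by 8 genes, Ooep, Nlrp5, Tle6, Khdc3, Padi6, Zbed3, Nlrp2 and Nlrp4f, matched by symbol to identifiers among the 44674 genes of the bulk count table and the 31053 genes of the single-cell matrices. All 8 were found in both. Ovaries of 7 to 9-day-old females were compared 6 h after 0.5 Gy of gamma radiation (IR) or sham treatment (nonIR, 0 Gy), in wild-type (WT) mice and in Chek2-/- mice, which lack the DNA damage checkpoint kinase CHEK2. Bulk RNA sequencing had 6 libraries for each of WT nonIR, WT IR, Chek2-/- nonIR and Chek2-/- IR, each from the paired ovaries of a female, and single-cell RNA sequencing had 1 library for each condition from the pooled ovaries of 4 females aged 7 days. The methods list C57BL/6J mice, without saying that the WT ovaries were theirs, and a targeted knockout allele of Chek2, inherited through the germ line, so that oocytes and somatic cells alike lack intact Chek2.

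The complex is an assembly of maternal proteins beneath the membrane of the growing oocyte and of the early embryo, where it is excluded from regions of contact between cells. Its genes are maternal-effect genes: females that lack NLRP5, OOEP or TLE6 ovulate, and their embryos stop at early cleavage, while loss of KHDC3 lowers fertility. The ovary at this age holds mainly primordial follicles, with a smaller number of oocytes that have begun to grow.

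OOEP, NLRP5 (also called MATER), TLE6 and KHDC3 (also called FILIA) are the core of the complex. Ooep lies at chr9:78376109-78378725 on the minus strand, 7932 bp from Dppa5a, and Khdc3 lies on the same chromosome at chr9:73101836-73104438 on the plus strand. OOEP and KHDC3 both belong to a family of proteins with an RNA-binding KH domain. Khdc3 overlaps the protein-coding gene Gm20509 on the same strand, so its counts are uncertain where reads could go to either gene. Nlrp5 (chr7:23385889-23441922, plus strand), Nlrp2 (chr7:5298547-5351035, minus strand) and Nlrp4f (chr13:65177111-65205977, minus strand) encode proteins with leucine-rich repeats of a family best known for sensors of innate immunity. Tle6 (chr10:81590904-81601073, minus strand) encodes a member of the Groucho family of corepressors and lies 59 bp from its relative Tle2. PADI6, from Padi6 (chr4:140727355-140742643, minus strand), is related to enzymes that convert arginine to citrulline and is needed for the lattices of the oocyte cytoplasm. ZBED3, from Zbed3 (chr13:95323612-95337841, plus strand), is a zinc-finger protein of the complex. Nlrp2 overlaps Gm18757 and Gm5065 on the opposite strand, from which reads cannot be told apart where strand was not used in counting. Coordinates are those of the GENCODE annotation of GRCm38.

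Ovarian regulators of the oocyte programme bind short elements near gene starts: FIGLA and SOHLH1 are basic helix-loop-helix factors of the E-box CANNTG, and NOBOX is a homeobox factor of TAATTG and TAATTA. The 250 bases before the RefSeq start (GRCm38.p6) are shown for Ooep and Nlrp5, the genes of the 8 that hold a NOBOX-type element, and for Zbed3 and Nlrp2, which varied together between ovaries, with matches in capitals. They are chr9:78378589-78378838 on the minus strand for Ooep, chr7:23385639-23385888 on the plus strand for Nlrp5, chr13:95323355-95323604 on the plus strand for Zbed3 and chr7:5351036-5351285 on the minus strand for Nlrp2, each written 5′ to 3′.
Ooep: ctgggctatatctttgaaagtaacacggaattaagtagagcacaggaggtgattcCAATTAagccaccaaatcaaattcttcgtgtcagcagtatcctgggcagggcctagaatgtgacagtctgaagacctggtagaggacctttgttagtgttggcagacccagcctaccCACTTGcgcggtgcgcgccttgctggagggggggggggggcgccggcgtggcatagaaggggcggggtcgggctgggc
Nlrp5: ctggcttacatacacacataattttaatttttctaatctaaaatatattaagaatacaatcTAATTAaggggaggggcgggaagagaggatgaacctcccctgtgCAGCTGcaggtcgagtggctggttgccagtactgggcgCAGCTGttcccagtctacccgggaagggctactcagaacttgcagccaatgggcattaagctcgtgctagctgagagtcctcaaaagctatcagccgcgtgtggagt
Zbed3: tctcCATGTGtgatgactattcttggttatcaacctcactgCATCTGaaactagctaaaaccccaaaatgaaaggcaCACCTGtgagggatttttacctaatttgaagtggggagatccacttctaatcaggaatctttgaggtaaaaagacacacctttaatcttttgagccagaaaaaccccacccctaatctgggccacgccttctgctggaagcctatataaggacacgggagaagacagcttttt
Nlrp2: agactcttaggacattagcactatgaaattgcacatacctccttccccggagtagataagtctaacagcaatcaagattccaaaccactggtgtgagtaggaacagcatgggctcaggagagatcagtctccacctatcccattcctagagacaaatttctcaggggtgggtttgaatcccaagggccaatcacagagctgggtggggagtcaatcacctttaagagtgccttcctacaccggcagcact
On both strands, E-box matches numbered 1 in Ooep, 2 in Nlrp5, 3 in Zbed3 and 0 in Nlrp2, and among those not shown 2 in Tle6, 5 in Khdc3, 2 in Padi6 and 1 in Nlrp4f. A match to the E-box stood in 66.0% of the same windows of 27025 genes, and a match to TAATTG or TAATTA in 11.5%. A match is a description of the letters and not a bound site.

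Bulk libraries held 17824920 to 32605519 estimated counts. Chek2 stood at 18.5 to 24.6 CPM (counts scaled to a common library size) in WT and at 2.88 to 4.53 CPM in Chek2-/- ovaries. The Chek2-/- nonIR and Chek2-/- IR libraries numbered 6 stood apart from the rest: Xist, the RNA of the inactive X chromosome, was at 0.43 and 0.57 CPM in them and at 701 to 1388 CPM in the other 22, while the Y-linked genes Ddx3y and Eif2s3y did not exceed 0.97 CPM in any library (highest in Chek2-/- nonIR 6). Summed markers of growing oocytes were at 1665 and 1830 CPM in these libraries against 2971 to 3395 CPM in the other Chek2-/- libraries, those of granulosa cells at 655 and 649 against 951 to 1271 CPM, and those of the ovarian surface epithelium at 1223 and 1045 against 460 to 814 CPM. Erythroid markers summed to 10445 and 7047 CPM in 1 other library of each Chek2-/- group, where medians were 478 and 368 CPM. Where leaving out the libraries numbered 6 changed a result, the value without them is given too.

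All 8 genes were read in every bulk library. Per kilobase of exon, Padi6 had the highest level, with 903, 1019 and 1124 CPM per kb as the lowest, median and highest of the 6 WT nonIR libraries. Zbed3 followed with 334, 367 and 398. Tle6 (201, 223 and 261), Nlrp5 (130, 211 and 252) and Ooep (144, 163 and 178) came next, and neighbours in this order overlapped. Khdc3 (66.4, 71.9 and 80.0) and Nlrp4f (62.4, 71.1 and 79.9) overlapped each other and lay below Ooep, and Nlrp2 was lowest (10.6, 11.9 and 17.1). The order of the 8 was the same in WT IR, and by their means Nlrp4f stood before Khdc3 in both Chek2-/- groups, with overlapping ranges. Nlrp5 and Ooep were close there, at means of 149 and 154 CPM per kb in Chek2-/- nonIR and 160 and 161 in Chek2-/- IR, and without the libraries numbered 6 Nlrp5 was the higher, at 172 against 167 and 183 against 173.

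**Figure D1:**
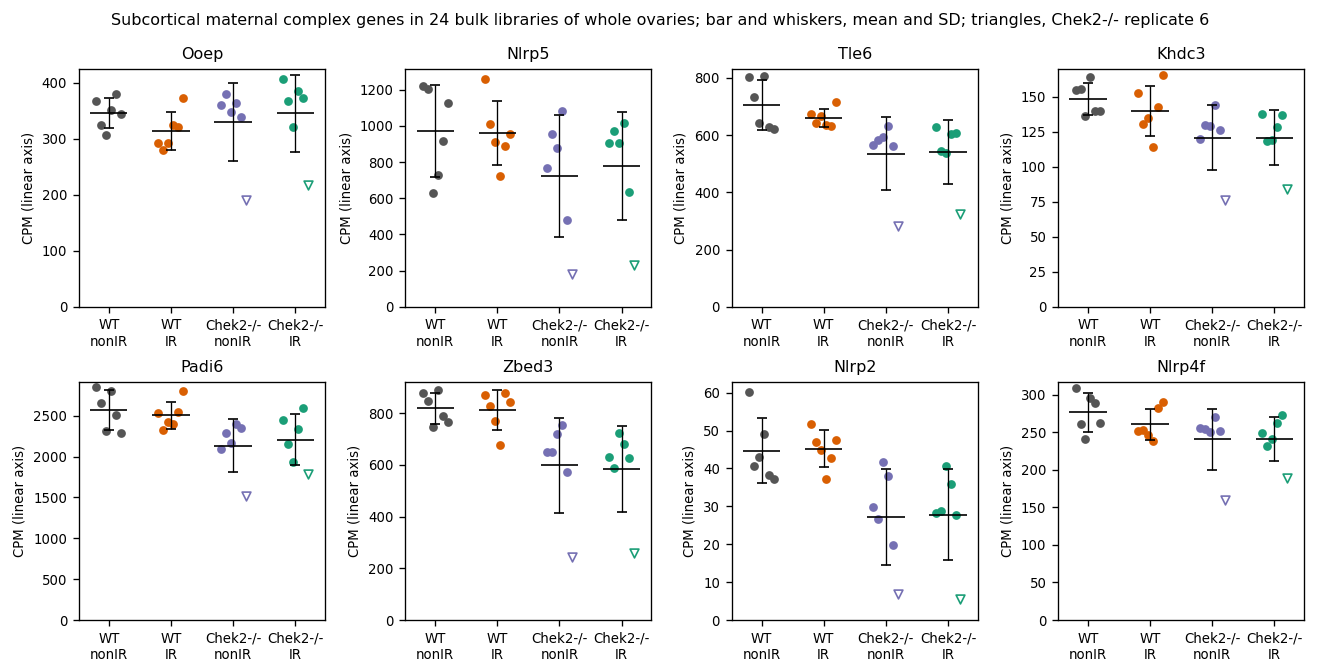
CPM of the 8 genes in each bulk library (linear axis from 0), 6 libraries per group, with the mean and SD as bar and whiskers and the Chek2-/- libraries numbered 6 as open triangles. WT nonIR and WT IR points overlap for each gene, and the triangles lie lowest in their group throughout, down to 179 CPM for Nlrp5 and 5.65 CPM for Nlrp2.

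No difference in the RNA of the complex that was larger than the spread between ovaries was found after irradiation of WT mice. By adjusted p at the 0.05 threshold 0 of the 8 were called, alone or with a change of at least 2-fold, against 2.41% and 1.08% of the 26790 genes tested (edgeR quasi-likelihood test, Benjamini-Hochberg over all genes, 6 against 6 libraries). At an unadjusted p of at most 0.05 the count was also 0, against 11.4% of all genes, as it was at an adjusted p of at most 0.05 in DESeq2 (3.08% of all genes) and limma-voom (2.43%). Ooep, a small KH protein of the core, was at 307, 347 and 380 CPM (lowest, median and highest) in WT nonIR and at 280, 307 and 374 CPM in WT IR. The groups overlapped, and the fitted log2 fold change was -0.14 ± 0.14 (SE). Padi6 was at 2286, 2580 and 2845 CPM without and 2323, 2476 and 2800 CPM with radiation. Its ranges coincided almost entirely, and its log2 fold change of -0.04 ± 0.10 had a 95% interval from -0.23 to 0.16. Nlrp5, the protein recognised in autoimmune disease of the ovary, was at 628, 1022 and 1222 CPM and then at 725, 934 and 1262 CPM. The spread of Nlrp5 within WT nonIR was wide, with a coefficient of variation of 26.1%, so its interval of -0.65 to 0.61 leaves room for a change of 1.5-fold either way. The other 5 genes had fitted log2 changes of -0.10 (Tle6) to 0.02 (Nlrp2), and 7 of the 8 estimates were below 0, with a median of -0.06 beside -0.004 over all genes tested. Without WT nonIR 1 the median was -0.021 with 4 of the 8 below 0, without WT IR 4 it was -0.025, without WT IR 2 -0.040 and without WT nonIR 3 -0.11. These directions turned when the mean of 14 oocyte reference genes was a covariate: all 8 estimates were then above 0, from 0.08 (Nlrp4f) to 0.63 (Nlrp2), and Zbed3, at 0.36, had an adjusted p of 0.0351 by edgeR, in a fit that called 2.89% of all genes. The reference itself was lower after irradiation, at a mean log2 CPM of 6.64 to 6.92 in WT IR against 6.91 to 7.15 in WT nonIR, and 3 of its 14 genes were called lower (6 of 14 without the Chek2-/- libraries numbered 6), so the adjusted estimates are changes relative to a reference that differed between the groups. In bulk ovaries, fewer cells of a type and less RNA per cell cannot be told apart.

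In Chek2-/- ovaries, too, no gene of the complex differed between IR and nonIR by more than the spread. None was called, against 0.00373% of genes past both thresholds and 0.0112% by adjusted p alone, and 0 of the 8 had an unadjusted p of at most 0.05, against 4.4% of all genes (DESeq2 and limma-voom also called 0). Fitted log2 changes ran from -0.03 (Zbed3) to 0.10 (Nlrp5), with Padi6 at 0.05 ± 0.10 (SE). The paper's text names Padi6 among the few genes changed by IR in Chek2-/- ovaries, while its supplement lists Padi1 instead. The difference between the genotypes in the response to IR, taken as the change in Chek2-/- minus the change in WT, was -0.02 (Zbed3) to 0.20 (Ooep) on the log2 scale. None of the 8 was called for this interaction, where 0.623% of genes passed both thresholds and 1.03% passed on the adjusted p, and neither DESeq2 nor limma-voom called one. Ooep had the interaction with the smallest p of the 8, at 0.20 ± 0.19 with an adjusted p of 0.87 by edgeR. These comparisons share libraries and are not independent of each other.

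**Figure D2:**
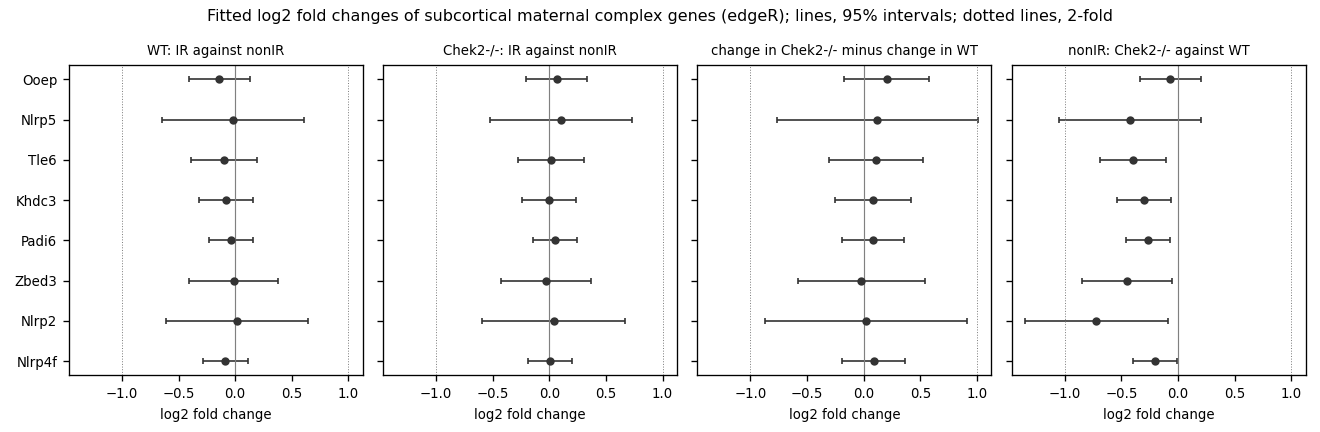
Fitted log2 fold changes (edgeR) with 95% intervals for the 8 genes in the 4 bulk comparisons, with dotted lines at 2-fold. The intervals are a normal approximation from the SE and can be narrower than the edgeR test implies. For Nlrp4f in Chek2-/- against WT nonIR the interval is -0.40 to -0.0055, beside an unadjusted p of 0.055 (edgeR). Intervals for IR against nonIR include 0 for each gene in both genotypes, while in nonIR ovaries the Chek2-/- against WT estimates lie between -0.72 (Nlrp2) and -0.07 (Ooep).

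Non-irradiated Chek2-/- ovaries had lower fitted levels than WT for all 8 genes, with log2 changes from -0.07 ± 0.14 (Ooep) to -0.72 ± 0.32 (Nlrp2). The median was -0.35 beside 0.01 over all genes tested. None of the 8 reached an adjusted p of at most 0.05 in edgeR, against 5.34% of all genes, and 0.788% of genes passed with a change of at least 2-fold. At an unadjusted p of at most 0.05, 5 of the 8 passed (Tle6, Khdc3, Padi6, Zbed3 and Nlrp2), against 21.6% of all genes. That count was 2 without WT nonIR 4 or without Chek2-/- nonIR 6, and 6 without WT nonIR 3 or without Chek2-/- nonIR 4. DESeq2 called Padi6 (adjusted p = 0.0481) and 9.47% of all genes, and limma-voom called none of the 8 and 4.98% of all genes. In edgeR, a replicate block called Tle6 (adjusted p = 0.0471) and 7.56% of all genes, and the oocyte covariate called Tle6 (adjusted p = 0.0127), Zbed3 (adjusted p = 0.0357) and 9.34% of all genes. Zbed3 was at 745, 818 and 888 CPM in WT and at 245, 649 and 755 CPM in Chek2-/- ovaries. Of the 6 Chek2-/- libraries only the highest reached into the WT range. Tle6 was at 620, 689 and 805 CPM in WT and at 281, 573 and 631 CPM in Chek2-/-, and here too only the highest Chek2-/- library reached the WT range. Nlrp2 was at 37.2, 41.8 and 60.1 CPM in WT and at 6.95, 28.2 and 41.6 CPM in Chek2-/-, and Ooep, at 307, 347 and 380 against 190, 354 and 380 CPM, had nearly equal medians. The methods do not state the background strain of the Chek2-/- mice. In each comparison of Chek2-/- with WT, the knockout and the background therefore cannot be told apart.

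Without both Chek2-/- libraries numbered 6, a choice made after seeing the data, 3 of the 8 genes were called as lower in Chek2-/- nonIR than in WT nonIR ovaries, against 7.09% of the 26480 genes then tested. Tle6 fell by 0.27 on the log2 scale (adjusted p = 0.0237, edgeR), Zbed3 by 0.29 (adjusted p = 0.0243) and Nlrp2 by 0.52 (adjusted p = 0.0452). The same 3 were called when a replicate block was added to that fit, against 11.1% of all genes. Zbed3 was then at 572, 649 and 755 CPM in the 5 remaining libraries, and Nlrp2 at 19.8, 29.8 and 41.6 CPM. Ooep turned to 0.05 ± 0.07, on the other side of 0, and 7 of the 8 were below 0, with a median of -0.21. With only the nonIR library numbered 6 left out, 0 of the 8 were called (smallest adjusted p = 0.174, edgeR, where 4.79% of all genes were called) at the same median of -0.21, so the 3 calls also needed the removal of the IR library, which is in neither group compared but enters the shared estimate of the spread. These 5 libraries also had summed markers of growing oocytes of 2974 to 3395 CPM against 3279 to 4196 CPM in WT nonIR, and summed markers of primordial oocytes of 296 to 367 against 219 to 319 CPM. The part of oocyte stage in the lower levels was not tested.

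The library labelled Chek2-/- nonIR 6 had 20.4% of the median of its 5 group mates for Nlrp5 and 23.4% for Nlrp2, but 52.8% for Ooep and 66.7% for Padi6. The library labelled Chek2-/- IR 6 had similar shares, with 25.6% for Nlrp5, 19.6% for Nlrp2, 58.3% for Ooep and 76.5% for Padi6. Zbed3 (37.7% and 41.2%) and Tle6 (48.4% and 53.9%) lay between, and Khdc3 and Nlrp4f at 58.8% to 76.1%. The genes of the complex were low in these ovaries to unequal degrees.

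Between ovaries of one group, each gene of the complex followed the other oocyte RNAs, and more loosely once those libraries were left out. Against the mean of 14 oocyte reference genes, with group means removed, Pearson's r over 24 libraries was 0.81 (Padi6) to 0.97 (Ooep), and Spearman's rho 0.53 (Nlrp5) to 0.90 (Ooep). All 8 relations had an adjusted p of at most 0.00022 for r and 0.00835 for rho (permutation test with 100000 resamples, two-sided, 8 relations). The smallest p that these permutations can give is 1e-05. They treat the libraries as independent, while the deviations of the Chek2-/- libraries numbered 6 correlated with each other at 0.66. No p was computed without these libraries. Both sides of each relation share the oocyte content of an ovary, so a positive r was likely beforehand. The 2 libraries farthest from the median on the reference axis were the Chek2-/- libraries numbered 6, and without them r was 0.87 for Ooep and 0.80 for Nlrp4f, 0.46 to 0.59 for Tle6, Zbed3, Padi6, Khdc3 and Nlrp2, and 0.36 for Nlrp5. For the last 6 genes named the strength of the relation rested in large part on these libraries, and with group means kept r was 0.66 (Padi6) to 0.95 (Ooep) and rho -0.03 (Nlrp2) to 0.82 (Ooep). With group means kept and these libraries left out, the relation did not hold for those 6 genes, at r of -0.31 (Nlrp2), -0.29 (Zbed3), -0.11 (Nlrp5), -0.070 (Tle6), 0.012 (Padi6) and 0.036 (Khdc3), and r was 0.83 for Ooep and 0.42 for Nlrp4f.

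With group means removed and the libraries numbered 6 of Chek2-/- left out, correlations among the 8 genes ranged widely across the remaining 22 libraries. They are given as a description with no test. Tle6, Khdc3 and Padi6 correlated at r of 0.74 to 0.81 with each other, and Nlrp4f at 0.59 to 0.74 with them. Zbed3 and Nlrp2 correlated at 0.81, and Nlrp5 at 0.57 with Zbed3 and 0.53 with Nlrp2. Zbed3 also correlated with Khdc3 (0.62), Nlrp4f (0.53) and Tle6 (0.49). Ooep correlated with Nlrp4f (0.64) and Padi6 (0.60). The lowest r was that of Ooep with Nlrp2 (-0.09), and r was near 0 for Ooep with Zbed3 (0.01) and for Padi6 with Nlrp5 (-0.01) and Nlrp2 (-0.005). All points share ovaries, depth and the share of oocyte RNA.

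Over all 24 libraries and 15956 genes with a mean of at least 1 CPM, each gene of the complex had others with a closely similar pattern. Group means were removed here too. Those with the highest r were the zona pellucida genes Zp2 for Ooep (r = 0.97), Zp1 for Khdc3 (0.97) and Zp3 for Padi6 (0.93). For Tle6 it was Zfp57, a maternal regulator of imprinted DNA methylation (0.99), and for Nlrp4f the related Nlrp14 (0.97). Zbed3 was closest to Rfpl4 (0.99) and Nlrp2 to Cpa1 (0.99). Nlrp5 was closest to its chromosomal neighbour Nlrp4e (0.96), 23612 bp away, followed by Grm2 (0.95) and Gm16050 (0.94). With the Chek2-/- libraries numbered 6 left out, r for Nlrp5 with Nlrp4e was 0.88, and the first place among the 3 closest genes changed for Ooep, where Uchl1 (0.86) passed Zp2 (0.82), and for Nlrp2, where Gm1070 (0.96) passed Cpa1 (0.95).

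Relatives of the 8 genes and other genes of the oocyte programme gave the setting for these values, from lists chosen with earlier results of these data known. Of 9 oocyte transcription regulators, Sohlh1, Nobox and Lhx8 were lower in WT IR than WT nonIR and none was higher, where 2.41% of all genes were called in either direction. Sohlh1 went from 55.2 ± 5.597 to 32.1 ± 7.30 CPM (mean ± SD, n = 6 each), a log2 change of -0.78 with an adjusted p of 0.000529 by edgeR. Nobox went from 176 ± 7.66 to 125 ± 12.4 CPM (log2 change -0.50, adjusted p = 0.00699, edgeR) and Lhx8 from 52.8 ± 3.91 to 38.3 ± 3.09 CPM (log2 change -0.46, adjusted p = 0.0270, edgeR). These are also the 3 that were called among the 14 oocyte reference genes, which share them. All 9 estimates were below 0 in WT, with a median of -0.36 beside -0.004 over all genes tested. In Chek2-/- none of the 9 was called, and Sohlh1 had an interaction of 0.88 (adjusted p = 0.0131, edgeR), where 1.03% of all genes were called. Without the libraries numbered 6, Figla and Trp63 were also called as lower in WT IR, and Dazl and Sycp3 of the reference genes (3.81% of all genes called), and Nobox and Lhx8 also for the interaction (1.31% of all genes called).

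Of 16 other maternal-effect genes, 0 were called for IR in either genotype or for the interaction, and Uhrf1, a DNA methylation cofactor, fell by 0.25 in Chek2-/- nonIR against WT nonIR (adjusted p = 0.0453, edgeR), where 5.34% of all genes were called. In that comparison 13 of the 16 were below 0 with a median of -0.25, among them Nlrp14 (log2 change -0.16), Dnmt1 (-0.43) and Trim28 (-0.16), the most abundant, which were not called. Of the 14 oocyte reference genes only Zp1 was called there, at -0.46 (adjusted p = 0.0236, edgeR). Without the libraries numbered 6 the median of the 16 was -0.17 with 13 below 0, and 5 were called as lower against 7.09% of all genes: Uhrf1 (log2 change -0.18, adjusted p = 0.0259, edgeR), Dnmt1 (-0.31), H1foo, Npm2 and Zar1. Zp1 was then at -0.36 (adjusted p = 0.00735, edgeR), and of the 14 reference genes 4 were called as lower, Gdf9 (-0.38) and Zp3 (-0.27) among them, and 1 as higher. Of 16 other Nlrp genes, 1 was called in that comparison and 1 in WT IR (2.41% of all genes). Nlrp4g was lower in Chek2-/- nonIR, at 17.4 ± 5.71 against 42.7 ± 5.31 CPM (log2 change -1.29, adjusted p = 0.00263, edgeR), and at 19.6 ± 2.40 CPM in the 5 libraries without that numbered 6 (log2 change -1.13). Without the libraries numbered 6, Nlrp9b was also called as lower there (7.09% of all genes called), Nlrp4c as lower in WT IR (3.81%) and Nlrp6 for the interaction (1.31%). Nlrp6, an inflammasome gene of epithelia, was lower in WT IR, at 0.13 ± 0.11 against 1.16 ± 0.30 CPM (adjusted p = 0.000244, edgeR).

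Of the 4 other Padi genes, Padi3 and Padi2 were called as higher in WT IR, beside 2.41% of all genes. Padi2 was at 14.0 ± 4.08 against 8.48 ± 1.81 CPM (log2 change 0.72, adjusted p = 0.0121, edgeR), and Padi3 at 1.58 ± 0.65 against 0.30 ± 0.15 CPM (log2 change 2.34, adjusted p = 0.000355, edgeR). Padi3 (adjusted p = 0.0260) and Padi1 (adjusted p = 0.0164) were also called for the interaction by edgeR, beside 1.03% of all genes, and Padi1 varied widely within groups, at 2.60 ± 4.27, 16.5 ± 21.9, 12.7 ± 17.4 and 0.13 ± 0.06 CPM in WT nonIR, WT IR, Chek2-/- nonIR and Chek2-/- IR. None of the 5 other Tle genes, 3 other Zbed genes or 4 KH-domain relatives of Ooep and Khdc3 tested was called in any of the 4 comparisons. Without the libraries numbered 6, Tle4, Zbed4 and Khdc1a were called as lower in WT IR, beside 3.81% of all genes. Khdc1a and Khdc1c were then called as higher in Chek2-/- nonIR than WT nonIR, beside 7.09% of all genes. Padi3 was no longer called for the interaction (adjusted p = 0.0716, edgeR), where 1.31% of all genes were called.

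The 4 single-cell libraries held 40594 barcodes, of which 36524 cells remained after filters on genes, mitochondrial and ribosomal UMIs (unique molecular identifiers, counted RNA molecules) and doublets. Libraries shared 30 to 73 barcodes in pairs. Clusters were named from marker genes, and 582 cells were oocyte-like, with 8 of 8 oocyte markers: 196 in WT nonIR, 171 in WT IR, 75 in Chek2-/- nonIR and 140 in Chek2-/- IR. Their median depth was 102898 UMIs, and 14183 UMIs in WT IR against 120518 to 181498 in the other libraries. The suspension had passed a 40 μm mesh, which can keep back large oocytes. With 1 library per condition there is no test between conditions, and the intervals given cover counting error only.

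Most RNA of the complex was in the oocytes. Of all 1064305 UMIs of the 8 genes, 91.6% (exact 95% interval 91.6 to 91.7%) came from the 582 oocyte-like cells, which were 1.59% of cells. The share was 96.4% for Ooep and Nlrp5, 96.1% for Padi6, 95.3% for Nlrp4f, 95.1% for Khdc3 and 94.8% for Nlrp2. It was lower for Tle6 (80.1%) and Zbed3 (74.1%), and for Zbed3 it ran from 60.3% in Chek2-/- nonIR to 79.6% in WT nonIR. In oocyte-like cells Ooep was at 7464 CPM of UMIs, Padi6 at 2268, Zbed3 at 1690, Tle6 at 871, Nlrp5 at 806, Nlrp4f at 261, Khdc3 at 170 and Nlrp2 at 9.94. The bulk and single-cell orders are not compared, since the libraries count different parts of a transcript.

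**Figure D3:**
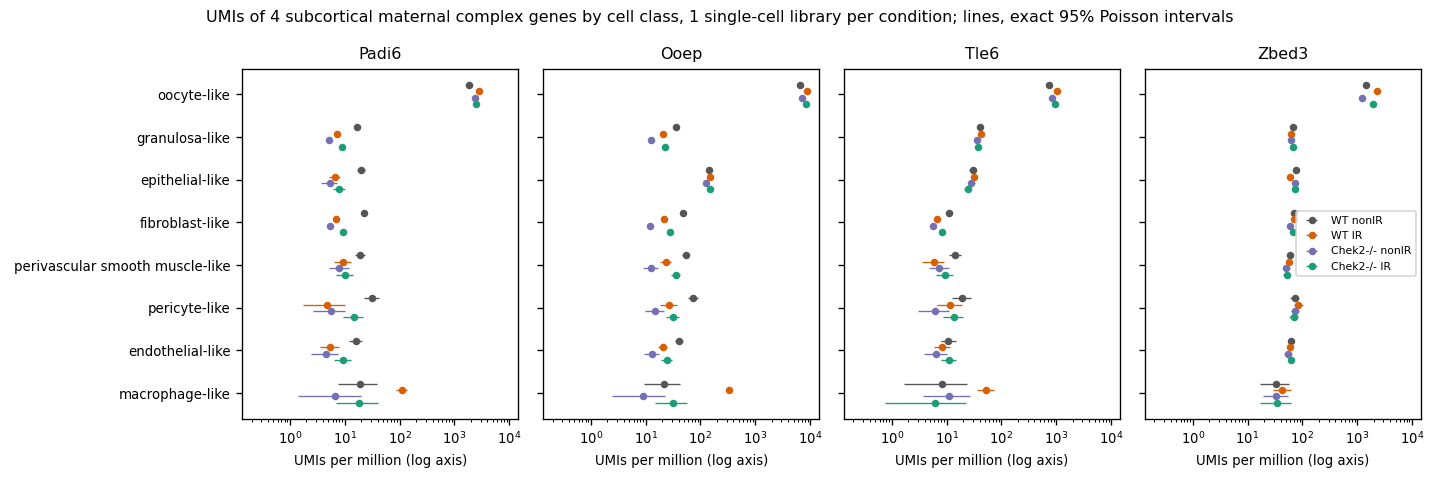
CPM of UMIs (log axis) of Padi6, Ooep, Tle6 and Zbed3 in each cell class, 1 point per single-cell library, with exact 95% Poisson intervals. Padi6 falls from 1844 or more in oocyte-like cells to 4.51 to 31.1 in the other classes except macrophage-like cells of WT IR (111), while Ooep keeps 128 to 150 in epithelial-like cells, Tle6 36.0 to 42.2 in granulosa-like cells and Zbed3 32.7 to 84.8 in every somatic class.

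Free RNA gives UMIs in droplets of cells that do not express a gene. Outside oocytes, Padi6, Nlrp5, Nlrp4f, Khdc3 and Nlrp2 were low in each class. Padi6 was at 9.39 CPM in granulosa-like, 10.9 in fibroblast-like, 8.86 in endothelial-like and 9.34 in epithelial-like cells. In each of these classes it was highest in WT nonIR, the library with the most oocyte-like cells. The order did not follow that number throughout: WT IR had 171 oocyte-like cells and Chek2-/- IR 140. Padi6 was at 5.44 and 9.33 CPM in their endothelial-like and 6.56 and 7.88 in their epithelial-like cells. Their oocyte-like cells held 37077 and 44174 Padi6 UMIs. A Padi6 UMI was seen in 17.5% of granulosa-like cells (median depth 21020 UMIs) and 12.5% of fibroblast-like cells (12018 UMIs). Padi6 was also at 13.7 CPM in pericyte-like and 50.9 CPM in macrophage-like cells, so its levels were not alike in every class. Free RNA was not measured apart from cells, and its part in these levels was not tested.

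Ooep was an exception in the 1199 epithelial-like cells, which carried all 7 markers of the ovarian surface epithelium. It was at 143 CPM there (95% interval 138 to 147), against 22.7 in granulosa-like, 27.6 in fibroblast-like and 25.1 in endothelial-like cells. The 4 libraries gave 143 (WT nonIR), 150 (WT IR), 128 (Chek2-/- nonIR) and 147 CPM (Chek2-/- IR), each above every other somatic class of its library except macrophage-like cells of WT IR. For each 100 UMIs of Padi6 there were 1527 of Ooep in epithelial-like cells, 329 in oocyte-like cells and 237 to 284 in the other classes. After thinning to 3000 UMIs per cell, 27.4% of epithelial-like cells had an Ooep UMI, against 6.73% of granulosa-like and 8.46% of fibroblast-like cells, and unthinned the shares were 65.2%, 36.6% and 28.2%. Macrophage-like cells of WT IR (54 cells) had 333 CPM of Ooep and 111 of Padi6, against 8.98 to 30.9 CPM of Ooep in the other libraries. After thinning, 7.89% of macrophage-like cells of all libraries had an Ooep UMI and 3.87% a Padi6 UMI. For Ooep this is close to the share in fibroblast-like cells, so the sums in WT IR need not describe most cells of the class.

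Tle6 was an exception in granulosa-like cells, the cells that enclose the oocyte, and to a lesser degree in epithelial-like cells. It was at 40.8, 42.2, 36.0 and 37.5 CPM in granulosa-like cells of WT nonIR, WT IR, Chek2-/- nonIR and Chek2-/- IR. In fibroblast-like cells it was at 11.2, 6.67, 5.64 and 8.31 CPM. The granulosa-like values lay above the fibroblast-like ones in all 4 libraries, and 11.3% of granulosa-like against 2.43% of fibroblast-like cells had a UMI after thinning to 3000. Epithelial-like cells had 28.6 CPM over all libraries. Zbed3 was present in every somatic class, from 37.2 CPM in macrophage-like to 74.6 CPM in pericyte-like cells, with 65.1 in granulosa-like and 66.7 in fibroblast-like cells. These levels did not follow those of Padi6 from library to library: in fibroblast-like cells Zbed3 was at 69.3, 71.4, 59.7 and 66.4 CPM where Padi6 was at 22.2, 6.94, 5.38 and 9.18 CPM, in the same order of libraries.

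Oocyte-like cells were clustered again without the 8 genes and staged by markers, with limits set after the clusters had been seen. Of these, 402 were primordial-like, 67 growing-like (37 in WT nonIR, 17 in WT IR, 4 in Chek2-/- nonIR and 9 in Chek2-/- IR), 38 intermediate, with markers of both, and 75 had little RNA. As a share of UMIs, the genes of the complex differed between these stages to very different degrees. Nlrp2 was at 1.46 CPM in primordial-like and 66.5 CPM in growing-like cells, a ratio of 45.5 (exact 95% interval 35.9 to 58.4). Zbed3 had a ratio of 13.3, from 614 to 8166 CPM, and Khdc3 a ratio of 10.1, from 61.3 to 617 CPM. With the 4 libraries pooled, Nlrp4f (3.13), Tle6 (2.69) and Nlrp5 (2.03) had smaller ratios, and Padi6 (1.64) and Ooep (1.28) the smallest. Median depth moved with stage, at 22573, 31910, 246288 and 303696 UMIs in growing-like and 192399, 21728, 152990 and 156046 UMIs in primordial-like cells of WT nonIR, WT IR, Chek2-/- nonIR and Chek2-/- IR. In UMIs per cell, growing-like cells of WT nonIR had less Ooep (520 against 906) and Padi6 (221 against 244) than primordial-like cells. The other 3 libraries had more in growing-like cells, from 1160 against 761 (WT IR) to 2326 against 730 (Chek2-/- nonIR) for Ooep and from 354 against 246 to 1007 against 221 for Padi6 in the same libraries, and the part of depth in the ratios was not tested. Without removal of doublets no intermediate cluster was found and more cells fell under primordial-like, and the ratios of Zbed3, Khdc3 and Nlrp2 were then 9.90, 5.63 and 27.97.

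**Figure D4:**
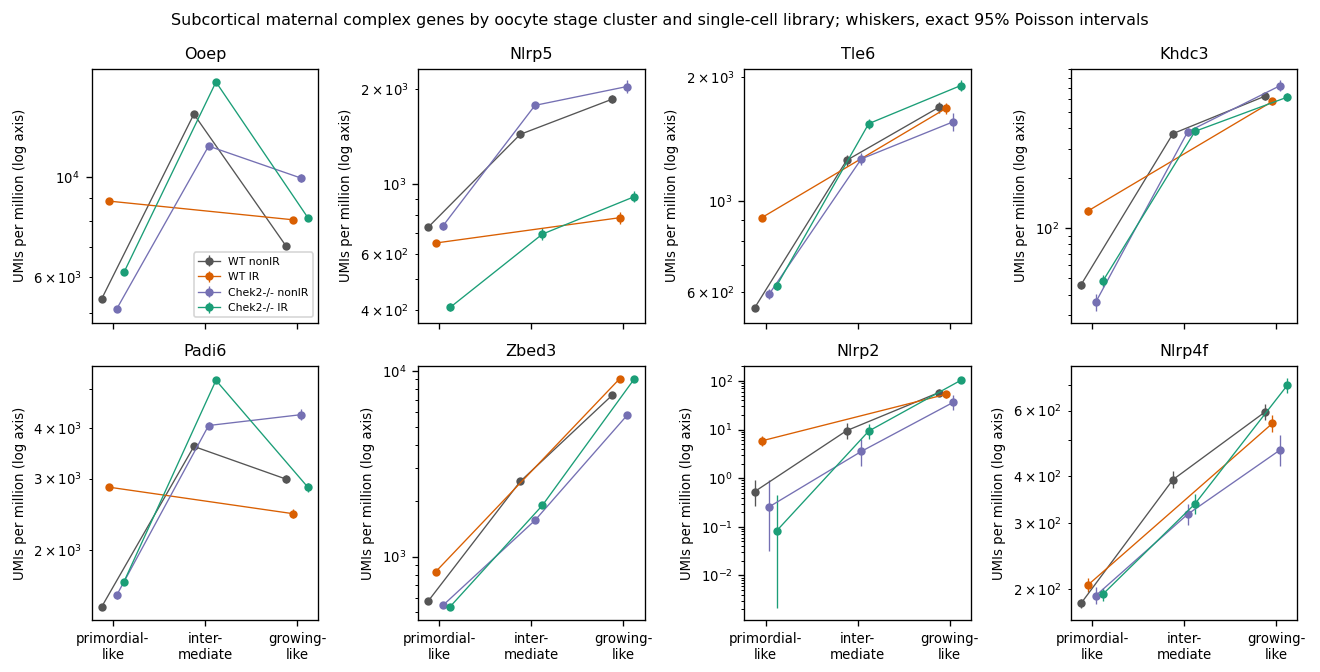
CPM of UMIs (log axes of different range) of each gene in primordial-like, intermediate and growing-like oocytes, 1 line per single-cell library, with exact 95% Poisson intervals. Zbed3, Khdc3 and Nlrp2 are far higher in growing-like than in primordial-like cells of each library, Ooep and Padi6 peak in the intermediate cluster in 2 of the 3 libraries that have it for Padi6 and in all 3 for Ooep, and WT IR has no intermediate cell, so its line joins the outer stages only.

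The direction was the same in all 4 libraries for 6 of the 8 genes. The ratio of growing-like to primordial-like was 10.5 to 16.8 for Zbed3, 4.53 to 19.97 for Khdc3, 2.45 to 3.61 for Nlrp4f, 1.84 to 3.08 for Tle6 and 1.20 to 2.76 for Nlrp5. Nlrp2 had a ratio of 9.05 in WT IR and of 109 in WT nonIR, where primordial-like cells held 63 and 12 UMIs. Those of Chek2-/- nonIR and Chek2-/- IR held 2 and 1 UMIs, with ratios of 141 (36.2 to 1212) and 1246 (222 to 49421). Without removal of doublets the ratios by library were 6.89 to 11.2 for Zbed3, 4.56 to 7.10 for Khdc3 and 9.13 to 51.9 for Nlrp2. Ooep and Padi6 were higher in growing-like cells in 3 libraries and lower in WT IR, with ratios of 0.91 and 0.86, and without removal of doublets the ratio of Ooep in Chek2-/- IR was 0.997. In WT IR most UMIs of Ooep (91767 of 95133), Padi6 (29080 of 30699) and Nlrp2 (62 of 63) in primordial-like cells came from 60 cells with most growth markers raised, the cluster seen in that library alone. Intermediate cells had the highest level of Ooep, at 13970 CPM, and of Padi6, at 4295 CPM, while Zbed3 there was at 2011 and Nlrp2 at 7.53 CPM, below growing-like cells. Nlrp5 in growing-like cells was at 1856 CPM in WT nonIR and 2034 CPM in Chek2-/- nonIR, against 783 CPM in WT IR and 912 CPM in Chek2-/- IR. Both irradiated libraries were the lower ones, from 17 and 9 cells. Nlrp5 was also lower in Chek2-/- IR than Chek2-/- nonIR in intermediate cells (694 against 1773 CPM) and primordial-like clusters (409 against 802, 543 against 744). In another primordial-like cluster WT IR had 291 CPM against 705 in WT nonIR, while low-RNA cells had 462 and 461. In bulk ovaries the fitted log2 change of Nlrp5 was -0.02 in WT and 0.10 in Chek2-/-, with both intervals across 0.

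Primordial-like cells of WT IR differed in level from those of the other libraries. Ooep was at 8852 CPM there and at 5376, 5091 and 6145 CPM in WT nonIR, Chek2-/- nonIR and Chek2-/- IR. Padi6 was at 2856 against 1448, 1542 and 1667 CPM, and Khdc3 at 127 against 45.7, 35.9 and 48.4 CPM. Of the 125 primordial-like cells of WT IR, 60 formed a cluster that no other library entered, with 9902 CPM of Ooep, 3138 of Padi6 and 232 of Cdkn1a, a p53 target, against 50.6 to 63.2 CPM of Cdkn1a in the other primordial-like clusters. Most growth markers were also higher in it than in those clusters. Gdf9 was at 727 against 233 to 379 CPM, Npm2 at 664 against 92.4 to 167, Zp2 at 2463 against 867 to 1442 and Zp3 at 3278 against 895 to 1414. Zp2 and Zp3 passed the growing-like cluster (1821 and 2368), while Bmp15, at 6.80 against 4.35 to 8.52, was not raised. The primordial markers Sycp3 (832 against 736 to 1196) and Sohlh1 (361 against 308 to 541) stayed in the range of those clusters. The levels of Ooep, Padi6 and Khdc3 in WT IR therefore cannot be told apart from a difference in stage within the primordial-like class. The paper describes a subcluster made up only of irradiated WT oocytes. It classed them as primordial, with low Gdf9, Zp1 and Zp2, and as responding to DNA damage. Whether that subcluster holds the same cells as the cluster of 60 was not tested. In the largest primordial-like cluster (47, 25, 9 and 21 cells in the order WT nonIR, WT IR, Chek2-/- nonIR and Chek2-/- IR), Ooep was at 4197, 2113, 2968 and 4525 CPM, lowest in WT IR. Nlrp5 in that cluster was at 608, 95.3, 609 and 364 CPM, and Padi6 at 1084, 1060, 974 and 1191 CPM. Khdc3 was at 29.9, 81.2, 13.5 and 37.5 CPM there, so it was highest in WT IR outside the cluster of 60 cells too. Summed granulosa and fibroblast markers were at 868 CPM in this cluster and 247 CPM in the cluster of 60 cells, and their part in the levels was not tested. Because each condition is a single library and the cluster of 60 cells is from WT IR alone, library and condition cannot be told apart.

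Nlrp5 was not detected in a share of deeply sequenced oocytes that held Ooep, Tle6 and Padi6. Of 335 oocyte-like cells with at least 50000 UMIs, a limit chosen after seeing the data, 56 had no Nlrp5 UMI (16.7%, exact 95% interval 12.9 to 21.2%). Ooep, Padi6, Tle6, Zbed3 and Nlrp4f had a UMI in each of the 335 (0 of 335 without one, exact upper bound 1.10%). The 10th percentile, median and 90th percentile of Nlrp5 were 0, 570 and 1555 CPM, and of Tle6 358, 648 and 1324 CPM, so that genes of similar median had unlike spread. Khdc3 and Nlrp2, which are low before growth, had no UMI in 37 and 281 cells. At a limit of 20000 UMIs, 64 of 398 cells had no Nlrp5 UMI.

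**Figure D5:**
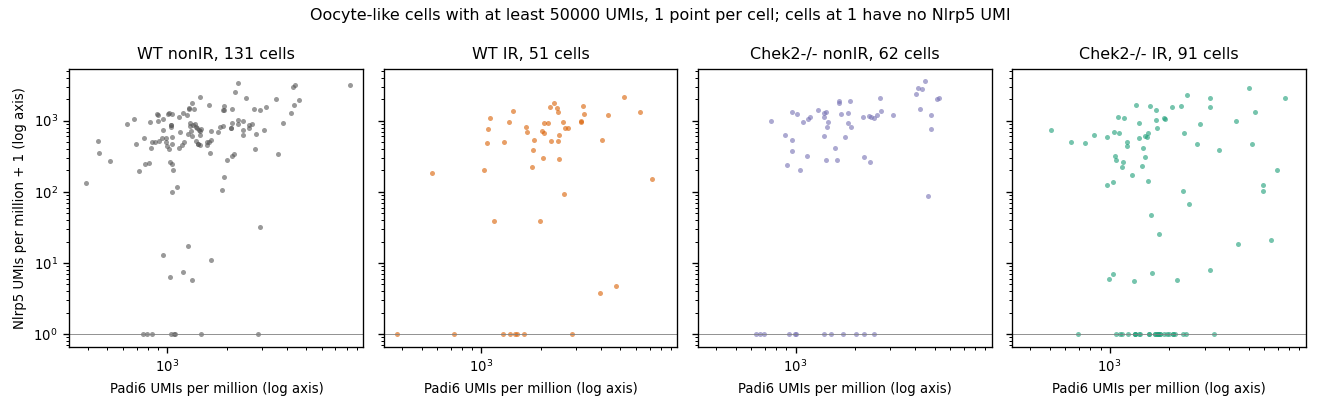
Nlrp5 against Padi6 CPM of UMIs (log axes, 1 added to Nlrp5) in each oocyte-like cell with at least 50000 UMIs, 1 panel per single-cell library. Cells with Nlrp5 reach 3553, and the row of points on the line at 1 holds the cells with no Nlrp5 UMI, 8 of 131 in WT nonIR, 8 of 51 in WT IR, 12 of 62 in Chek2-/- nonIR and 28 of 91 in Chek2-/- IR.

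The cells without Nlrp5 were in all 4 libraries and mostly at the primordial-like stage. They were 8 of 131 in WT nonIR (6.11%, interval 2.67 to 11.7%), 8 of 51 in WT IR (15.7%, 7.02 to 28.6%), 12 of 62 in Chek2-/- nonIR (19.4%, 10.4 to 31.4%) and 28 of 91 in Chek2-/- IR (30.8%, 21.5 to 41.3%). By stage they were 54 of 279 primordial-like, 2 of 30 intermediate and 0 of 25 growing-like cells. At any depth, 64 of the 67 growing-like cells had an Nlrp5 UMI. The depth limit kept 131 of 196 oocyte-like cells in WT nonIR and 51 of 171 in WT IR. It kept 62 of 75 in Chek2-/- nonIR and 91 of 140 in Chek2-/- IR, so the libraries are not represented alike. Median depth was 160991 UMIs in the 56 cells and 204704 in the 279 with Nlrp5. The 56 cells had 4798 CPM of Ooep against 7990, 1623 of Padi6 against 2363, and 594 of Tle6 against 908. Nlrp4f (199 against 269 CPM) and the related Nlrp14 (759 against 1262 CPM) were present in each of the 56. Above the depth limit, the cells with Nlrp5 included most intermediate and all growing-like cells, so these groups differed in stage. Primordial-like clusters other than that of 60 cells, at any depth, had 3953 to 6411 CPM of Ooep, 1093 to 1928 of Padi6 and 420 to 691 of Tle6. The part of stage in these differences was not tested. Nlrp4e, the neighbour of Nlrp5 that followed it most closely between bulk ovaries, had 0 UMIs in the 56 cells (at most 0.42 CPM) and 253 UMIs, 4.20 CPM, in the 279 others, where 37 cells held them. Cells of 1 library share their animals and their preparation, so these counts describe the 4 libraries and not the conditions.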

How the data were processed

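Bulk ovary RNA was sequenced by the authors from polyA-selected libraries, and the deposited table holds estimated counts per gene from Salmon 1.3.0 (Trim Galore 0.6.5, FastQC 0.11.9 and MultiQC 1.9, per the labels) with the annotation of Ensembl release 105 over 24 libraries. Single-cell libraries were made on the 10x platform, and the deposited matrices hold UMI counts per gene and barcode from Cell Ranger. Pseudo-alignment splits reads between overlapping or similar genes, so Khdc3, Nlrp2 and the Nlrp family carry that uncertainty. The labels name mm10 while that Ensembl release is on a later build, so bulk genes were used by identifier only. Of 44674 identifiers, 27408 took their symbol from the single-cell gene list and 16744 from the reference table.

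Estimated counts were rounded, genes with at least 10 counts over all libraries kept, and 1 coefficient per group fitted with TMM normalisation and the quasi-likelihood test of edgeR 4.0.16 (R 4.3.3), with Benjamini-Hochberg adjustment. Calls were an adjusted p of at most 0.05, with or without a 2-fold change. DESeq2 1.42.0, limma-voom (limma 3.58.1), other filters and scaling, a replicate block, an oocyte covariate and leaving out libraries were alternatives. Libraries are labelled as separate samples of a group, each from a female per the methods. CPM are TMM-scaled, and CPM per kb divides them by the union of exons in the GENCODE annotation. Single cells with at least 1000 genes, at most 20% mitochondrial and 50% ribosomal UMIs were kept, doublets removed with Scrublet (1750 of 38274), and cells clustered with scanpy 1.11.5 (2000 variable genes without the 8 genes, 30 components, 15 neighbours, Leiden resolution 0.5). Classes were named from at least 3 markers detected in the cluster. Oocyte stages and depth limits were set after clusters had been seen. Intervals (exact Poisson or Clopper-Pearson, 95%) cover counting error only. Those of bulk log2 changes are a normal approximation from the SE. Scripts were tested on simulated data.

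All 8 genes were named, and from each list those called and the 3 of highest level where a value bears on the text, with up to 3 genes of most alike pattern for each of the 8. The genes and lists were chosen with earlier results of these data known. No protein sequence was used here.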

Additional observations from a re-analysis of the deposited data

Results flagged for a closer look

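Of 32 groups of 6 bulk libraries tested (8 genes in 4 groups), 10 held a library far from the others by Dixon's criterion, which chance alone flags in about 1 in 20 groups. In each of the 10 it was the lowest library, and it was numbered 6 in a Chek2-/- group. In Chek2-/- nonIR it had 190 CPM of Ooep (next lowest library 338), 281 of Tle6 (561), 75.9 of Khdc3 (120), 1522 of Padi6 (2095), 245 of Zbed3 (572) and 160 of Nlrp4f (250). In Chek2-/- IR it had 325 CPM of Tle6 (537), 84.2 of Khdc3 (119), 259 of Zbed3 (590) and 5.65 of Nlrp2 (27.6). The same libraries had Xist at 0.43 and 0.57 CPM.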

How the results depend on the processing

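Of 768 recomputed fold changes of single genes, 671 kept their direction and side of the threshold, 87 changed sign (1 of them, Zbed3 in WT IR with the oocyte covariate, also passed the threshold) and 10 passed the threshold only under the alternative with the same sign. None of the 8 genes passed both thresholds under any alternative, and leaving out each library in turn gave counts of 0 to 0 called by adjusted p in each of the 4 comparisons. By adjusted p, the oocyte reference covariate called 1 in WT IR against nonIR and 2 in Chek2-/- against WT nonIR, where DESeq2 called 1, the replicate block 1, the fit without both Chek2-/- libraries numbered 6 called 3 and that fit with the block 3. The same fits called 2.89%, 9.34%, 9.47%, 7.56%, 7.09% and 11.1% of all genes, in that order. The share of UMIs in oocyte-like cells was 91.0% without removal of doublets and 91.7% at Leiden resolution 1.0. The causes were not tested.

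With the oocyte covariate, WT IR log2 changes were 0.11 (Ooep), 0.55 (Nlrp5), 0.17 (Tle6), 0.11 (Khdc3), 0.10 (Padi6), 0.36 (Zbed3) and 0.084 (Nlrp4f), interactions were -0.051 (Ooep), -0.43 (Nlrp5), -0.15 (Tle6), -0.11 (Khdc3), -0.056 (Padi6), -0.63 (Nlrp2) and -0.078 (Nlrp4f), and Ooep in Chek2-/- against WT nonIR was 0.058, each on the other side of 0. Limma-voom turned Nlrp5 in WT IR (0.0083), Khdc3 in Chek2-/- IR (0.0096) and Nlrp2 for the interaction (-0.0095), and filterByExpr turned Nlrp4f in Chek2-/- IR (-0.00037). Without both libraries numbered 6, Tle6 (-0.0052) and Nlrp4f (-0.029) turned in Chek2-/- IR and Ooep (0.051) in Chek2-/- against WT nonIR.

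Libraries of the same number were not taken as pairs, since not every pair had deviations from group means that correlated above 0.1. It was 3 of 6 pairs for WT, 5 of 6 for Chek2-/- (0.058 to 0.66) and 2 of 6 between genotypes, and 1, 4 and 2 libraries correlated best with their own number, which is a hint from the data and not from the design. With the replicate block, Zbed3 in WT IR was 0.00069, Khdc3 in Chek2-/- IR 0.00073 and Nlrp2 for the interaction -0.022, and Tle6 was called in Chek2-/- against WT nonIR (-0.42, adjusted p = 0.0471, edgeR). The block without libraries numbered 6 gave Tle6 -0.0063 and Nlrp4f -0.031 in Chek2-/- IR and Ooep 0.081 in Chek2-/- against WT nonIR. It changed no other call.

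Leaving out 1 library each moved WT IR changes from -0.11 to 0.065 (Nlrp5), -0.066 to 0.00093 (Padi6), -0.034 to 0.037 (Zbed3) and -0.028 to 0.13 (Nlrp2). Changes in Chek2-/- IR ran from -0.053 to 0.16 (Ooep), -0.10 to 0.28 (Nlrp5), -0.12 to 0.12 (Tle6), -0.10 to 0.077 (Khdc3), -0.032 to 0.096 (Padi6), -0.19 to 0.11 (Zbed3), -0.16 to 0.24 (Nlrp2) and -0.089 to 0.057 (Nlrp4f). Interactions ran from -0.085 to 0.29 (Nlrp5), -0.024 to 0.20 (Tle6), -0.023 to 0.15 (Khdc3), -0.18 to 0.11 (Zbed3), -0.18 to 0.21 (Nlrp2) and -0.0074 to 0.13 (Nlrp4f), and Ooep in Chek2-/- against WT nonIR from -0.11 to 0.051.

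Over all genes, calls by adjusted p in Chek2-/- against WT nonIR were 1430, against 2507 in DESeq2, 2501 with the covariate, 2930 with the block and without libraries numbered 6, and 573 to 807 without WT nonIR 2, 3 or 4 or Chek2-/- nonIR 1. With a 2-fold change they were 211, against 81 in DESeq2 and 96 to 129 without WT nonIR 2, 3 or 4 or Chek2-/- nonIR 6. WT IR had 646 and 1009 or 1033 without libraries numbered 6 (with the block), the interaction 277 and 458 in DESeq2, and Chek2-/- IR 3 and 14 in DESeq2. Levels of Nlrp2 in primordial-like cells are limited by depth.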
